A study of Homo sapiens with 6 samples.

Results

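Interferon-stimulated genes were followed in HaCaT cells (immortalised keratinocytes of human origin) as a set of 49 symbols chosen from the known antiviral and interferon-response genes and looked up by name in the expression table. Of the 49, 47 reached at least 1 RPKM (reads scaled to transcript length and library depth) in at least 1 of 6 libraries. They are 47 of the 12925 genes that did so, out of 27945 in the table. BST2 and IFI44L stayed below that level and were not tested. MX2 and IFI27 passed it in IL-1α libraries alone, so a higher value with IL-1α was built into their selection; the other 45 also passed it in a PBS library.

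The libraries are bulk poly-A RNA sequencing of wild-type HaCaT cells and of HaCaT cells labelled as knockout for p38α, the stress kinase encoded by MAPK14. Cells received PBS (the unstimulated condition) or the cytokine IL-1α for 4 h. Each genotype has 1 PBS library and 2 IL-1α libraries. All groups share the same line and the same serum-containing medium. The labels describe neither the edit in MAPK14 nor whether the knockout is 1 clone, and nothing says that the replicates came from separate cultures. Each p-value therefore measures the spread between these samples only, which may be technical. In bulk RNA, fewer expressing cells and less RNA per cell cannot be told apart.

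Interferons are secreted proteins that cells release on sensing viral nucleic acid. Type I and type III interferons bind their receptors and activate the ISGF3 complex, of which STAT2 and IRF9 are subunits. ISGF3 binds the interferon-stimulated response element (ISRE) in the promoters of many interferon-stimulated genes, whereas interferon-γ acts through the gamma-activated site (GAS). IL-1α, stored in keratinocytes and released on injury, signals instead through NF-κB, which binds κB sites, and through MAP kinases that include p38α. Many interferon-stimulated genes also answer IRF1, IRF3 or NF-κB without interferon.

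Depth was 16294020 to 34968051 reads a library, and the knockout libraries were the deeper ones. MAPK14 RNA was still present in the knockout, at 11.3 RPKM with PBS and 10.99 and 7.41 RPKM with IL-1α, against 14.4, 13.3 and 14.8 RPKM in wild type. An RNA level does not read the protein, and the position of the edit is not known here. All 7 keratinocyte markers examined passed 1 RPKM. Among 6 leukocyte markers only CD68 did, while the pan-leukocyte gene PTPRC was at or below 0.132 RPKM and the plasmacytoid dendritic cell gene CLEC4C was listed at 0 in every library. The summed leukocyte markers ranged from 4.88 to 14.8 RPKM and were highest in the 2 wild-type IL-1α libraries (14.8 and 12.1 RPKM). Summed fibroblast markers ranged from 0.756 to 2.59 RPKM. Of 3 endothelial markers only the cadherin CDH5 passed, at 1.45, 11.4 and 11.8 RPKM in wild type and 2.94, 10.3 and 1.84 RPKM in the knockout, so it varied with IL-1α and between the knockout replicates; PECAM1 was listed at 0 throughout. The part of these markers in the results was not tested.

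Promoters of these genes were searched for the ISRE core, GAS and the κB consensus. RefSeq windows running from 250 bases before to 50 bases after an annotated start (build GRCh38.p14) were matched by gene ID for 39 of the 49 genes. The ISRE core, GAAA followed after any 2 bases by GAAA, was searched on both strands and was found in 27 of the 39 genes (69.2%). Of all 35116 promoter windows 3.57% held it, against 61.5% of the 52 windows of these genes, since some have several starts. GAS, written TTCNNNGAA, occurred in 11 genes (28.2%) and in 25% of their windows, against 7.66% of all windows, and it overlapped an ISRE core in IFITM1, EPSTI1, IFI27, BST2 and MX1. The κB consensus occurred in 8 genes (IRF1, IFIH1, DDX58, OAS3, MX1, IFITM3, BST2 and XAF1; 20.5%) and in 17.3% of their windows, against 11.3% of all windows, and overlapped neither. The 250 bases before the start are printed for the 5 ISRE-bearing genes of largest wild-type difference, to show where the element lies. ISRE cores are in capitals, and those on the other strand appear as their reverse complement. They cover chr21:41431800-41432049 (plus strand), chr12:112938224-112938473 (plus), chr15:88638766-88639015 (plus), chr2:162318685-162318934 (minus) and chr3:122680589-122680838 (plus).
MX1: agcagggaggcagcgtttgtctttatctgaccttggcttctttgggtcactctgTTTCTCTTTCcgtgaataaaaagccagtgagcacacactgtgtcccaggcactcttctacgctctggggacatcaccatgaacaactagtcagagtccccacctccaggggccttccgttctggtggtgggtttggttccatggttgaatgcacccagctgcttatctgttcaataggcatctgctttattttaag
OAS3: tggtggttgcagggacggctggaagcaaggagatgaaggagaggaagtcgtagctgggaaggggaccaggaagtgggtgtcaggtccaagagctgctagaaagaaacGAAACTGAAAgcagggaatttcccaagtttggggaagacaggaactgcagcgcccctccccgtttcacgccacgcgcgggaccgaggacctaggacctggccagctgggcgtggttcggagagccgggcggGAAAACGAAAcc
ISG20: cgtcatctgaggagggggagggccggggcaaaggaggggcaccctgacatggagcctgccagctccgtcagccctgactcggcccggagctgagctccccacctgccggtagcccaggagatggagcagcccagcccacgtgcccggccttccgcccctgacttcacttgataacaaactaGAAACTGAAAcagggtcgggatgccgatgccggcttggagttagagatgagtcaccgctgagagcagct
IFIH1: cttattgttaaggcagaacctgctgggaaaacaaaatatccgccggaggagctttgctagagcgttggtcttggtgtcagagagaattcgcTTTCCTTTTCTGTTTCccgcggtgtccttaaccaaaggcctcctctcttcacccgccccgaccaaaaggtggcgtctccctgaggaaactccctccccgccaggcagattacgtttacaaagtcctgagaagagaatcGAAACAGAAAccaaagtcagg
PARP14: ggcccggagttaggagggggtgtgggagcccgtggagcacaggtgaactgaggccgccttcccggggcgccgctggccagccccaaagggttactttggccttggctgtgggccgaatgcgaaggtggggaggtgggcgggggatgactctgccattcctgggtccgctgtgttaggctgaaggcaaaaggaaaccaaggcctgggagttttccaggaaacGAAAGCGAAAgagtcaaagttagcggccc
MX1 has 3 annotated starts; the one shown holds 1 core on the other strand, 196 to 187 bases before the start, and a further core lies just after the first start. OAS3 holds 2 cores, from 143 and from 12 bases before the start. In IFIH1 2 overlapping cores on the other strand stand beside 1 that ends 12 bases before the start. ISG20 and PARP14 hold 1 each, beginning 69 and 29 bases before the start. A match is a run of letters and not a measured binding site.

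**Figure D1:**
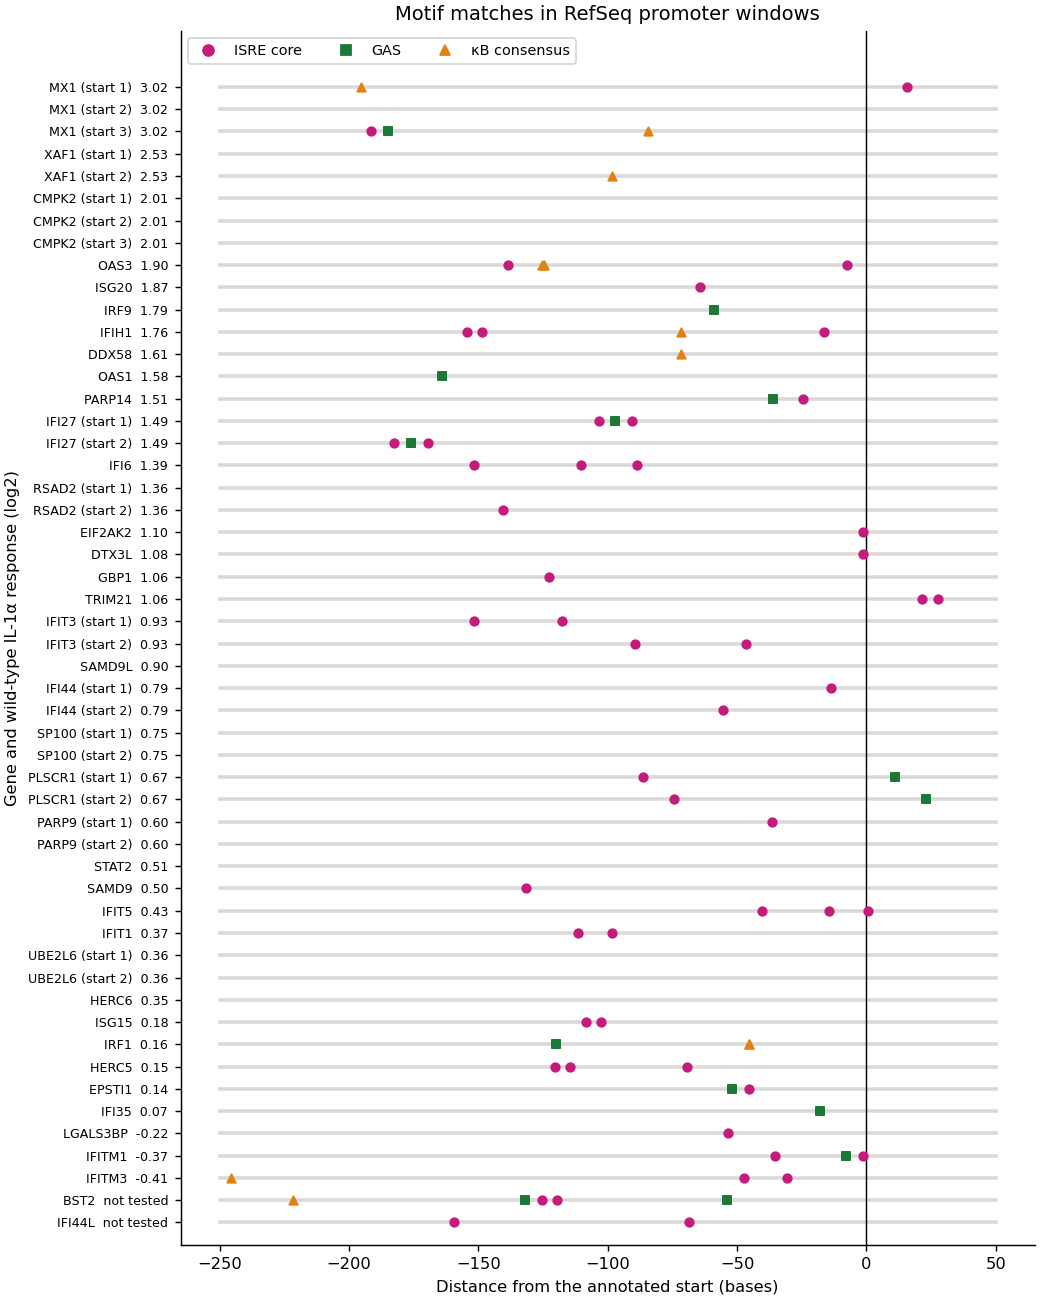
Positions of ISRE core, GAS and κB consensus matches (x axis, bases from the annotated start) in the 52 RefSeq promoter windows of 39 interferon-stimulated genes, ordered by wild-type IL-1α difference (log2, beside each name). Cores lie mostly within 200 bases before the start and occur from the top of the order (MX1, 3.02) to the bottom (IFITM3, -0.41).

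In wild-type cells IL-1α libraries held more RNA of most of these genes, among them MX1, XAF1, CMPK2, OAS3 and ISG20. Only the RNA sensor IFIH1 passed the test adjusted over all genes. In 39 of 47 genes both IL-1α libraries lay above the PBS library (27.5% of all genes). The 4 genes with both libraries below it were IFITM1, IFITM2, IFITM3 and LGALS3BP (54.3% of all genes). Differences are given as log2(RPKM + 0.5) from limma, fitted over all 12925 genes with Benjamini-Hochberg adjustment; the added 0.5 understates the change of low genes, so that MX2 stood behind MX1 and XAF1 on this scale and ahead of them by reads (42.6 against 10.7 and 7.12 times). The median difference of the 47 was 0.81, against -0.14 over all genes, and 21 exceeded 2-fold upward (2.23% of all genes). By adjusted p 1 of 47 was higher and 0 lower (0.201% and 0.0155% of all genes); at an unadjusted p under 0.05 the counts were 25 and 0 (4.69% and 13.4%). The balance of all genes depended on the scaling: their 606 higher and 1727 lower became 982 and 1004 with median-of-ratios rescaling of the libraries and 1110 and 678 with the trend on transcript length removed. The members then counted 31 and 33 higher and 0 lower. Their 25 higher became 23 with an added 0.1 in place of 0.5 or with no variance trend, and 22 with no filter on low values. MX2 and IFI27, which passed the filter in IL-1α libraries alone, are among the 39, the 21 and the 25. A higher value with IL-1α was built into their selection, so they do not add support to these counts.

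**Figure D2:**
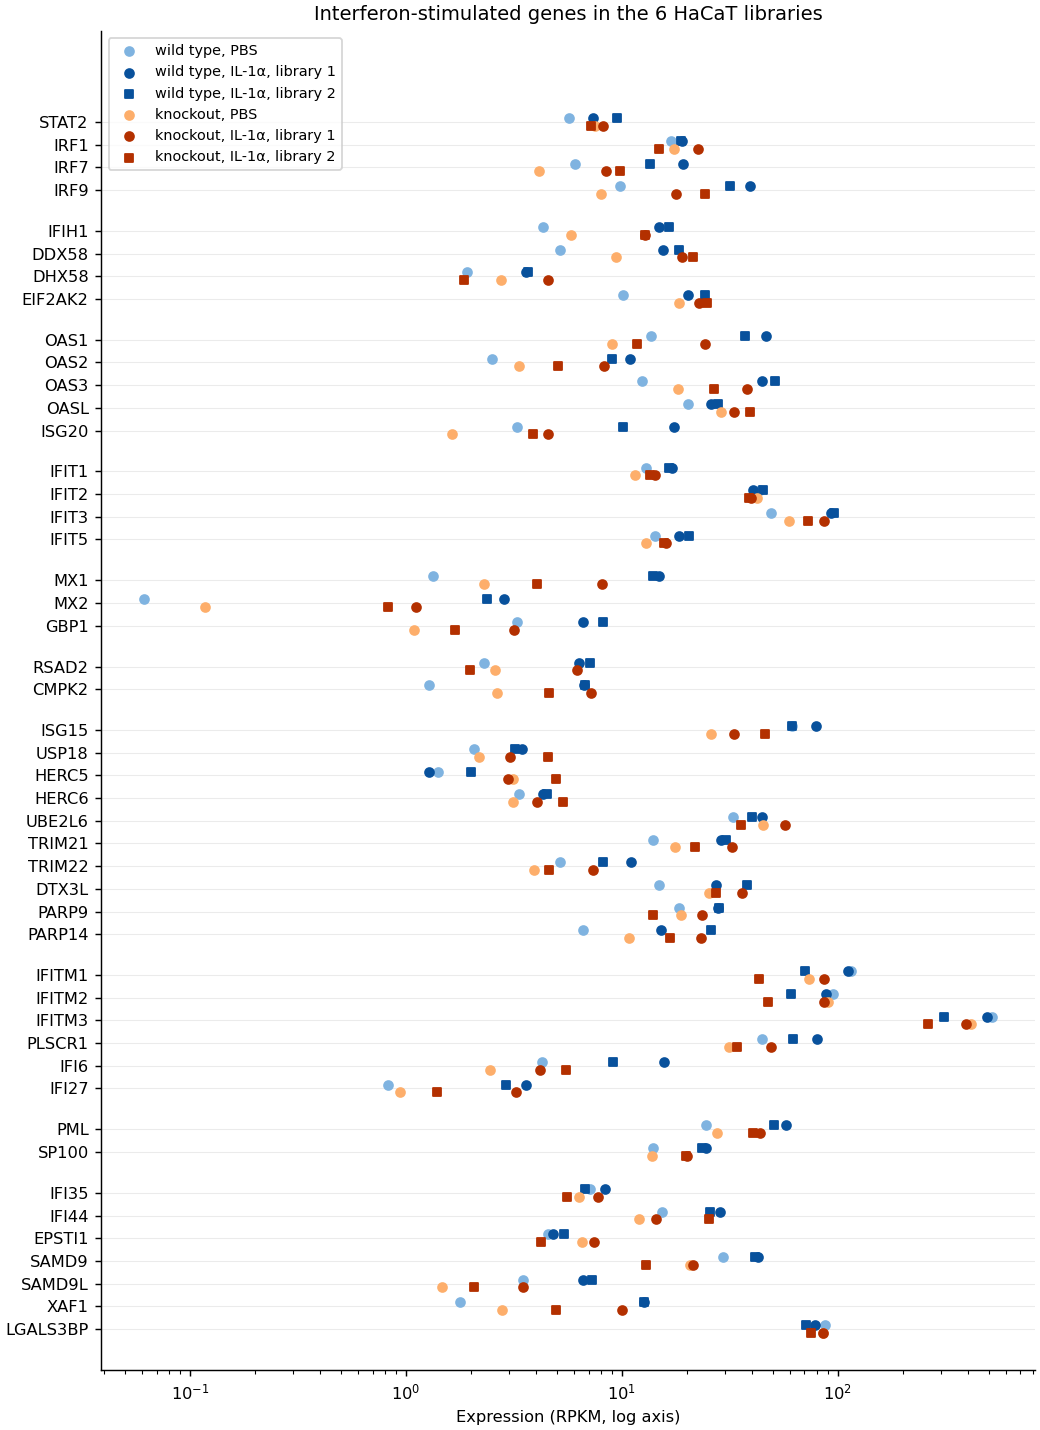
Expression (x axis, RPKM, log scale) of the 47 interferon-stimulated genes in each library, grouped by role; circles and squares are single libraries. Dark blue wild-type IL-1α points lie to the right of the light blue PBS point for 39 genes, and MX2 spans the widest range, from 0.0610 to 2.83 RPKM.

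Below, 3 values for a genotype are the PBS library followed by IL-1α libraries 1 and 2, and RPKM levels are per length. The transcription factors of the pathway come first. IRF9, the DNA-binding subunit of ISGF3, stood at 9.83, 39.1 and 31.7 RPKM in wild-type cells and 7.99, 17.8 and 24.3 RPKM in knockout cells. IRF7, the factor that amplifies interferon gene transcription, stood at 6.03, 19.2 and 13.4 RPKM in wild-type cells and 4.12, 8.41 and 9.83 RPKM in knockout cells. For both genes every IL-1α library exceeded the PBS library of its genotype, and both knockout IL-1α values lay below both wild-type ones. The IRF9 difference was 1.79 ± 0.26 (SE) in wild type (limma adjusted p = 0.0672) and 1.33 ± 0.26 in the knockout (adjusted p = 0.312). For IRF7 the differences were 1.34 ± 0.27 and 1.05 ± 0.27. STAT2, a further ISGF3 subunit, varied less, at 5.696, 7.34 and 9.45 RPKM in wild-type cells and 7.53, 8.13 and 7.22 RPKM in knockout cells. IRF1, a factor that binds ISRE-like elements, stood at 16.8, 18.9 and 18.7 RPKM in wild-type cells and 17.4, 22.4 and 14.8 RPKM in knockout cells; its knockout IL-1α libraries fell on either side of every other library.

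The cytoplasmic RNA sensors IFIH1 (MDA5) and DDX58 (RIG-I) recognise viral double-stranded RNA. IFIH1 (chr2:163123589-163175218, hg19) stood at 4.29, 14.8 and 16.6 RPKM in wild-type cells and 5.804, 12.8 and 12.8 RPKM in knockout cells. All 4 IL-1α libraries lay above both PBS libraries, and the knockout pair lay just below the wild-type pair. In wild type IFIH1 rose by 1.76 ± 0.20 on the log2 scale (limma adjusted p = 0.0478); the knockout difference was 1.08 ± 0.20 (adjusted p = 0.271). The wild-type call sat at the threshold. Its adjusted p was 0.441 without wild-type IL-1α library 1, 0.734 without library 2, 0.0739 without knockout IL-1α library 1 and 0.0753 without knockout library 2, with 0.112 when no low values were filtered; the difference itself stayed between 1.67 and 1.87 under these and the other settings that lost the call.

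DDX58 stood at 5.18, 15.5 and 18.3 RPKM in wild-type cells and 9.39, 19.02 and 21.4 RPKM in knockout cells. Its PBS level was higher in the knockout, and so were both IL-1α levels, one of 3 genes with that order. The wild-type difference was 1.61 ± 0.21 (adjusted p = 0.0621) and the knockout one 1.06 ± 0.21. EIF2AK2 encodes PKR, the kinase that halts translation on double-stranded RNA, and stood at 10.1, 20.3 and 24.2 RPKM in wild-type cells and 18.4, 22.8 and 24.7 RPKM in knockout cells. The IL-1α levels of the genotypes overlapped, whereas the knockout PBS level was the higher one by 0.83 on the log2 scale. DHX58 (LGP2), a regulator of the other sensors, stood at 1.91, 3.61 and 3.67 RPKM in wild-type cells and 2.76, 4.55 and 1.85 RPKM in knockout cells; knockout library 2 was the lowest of all 6 and knockout library 1 the highest.

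Oligoadenylate synthetases make the messenger that activates RNase L, which cuts RNA. OAS1, OAS2 and OAS3 lie side by side on chromosome 12. OAS3 stood at 12.4, 44.5 and 50.9 RPKM in wild-type cells and 18.2, 37.96 and 26.6 RPKM in knockout cells. OAS1 stood at 13.6, 46.7 and 37.3 RPKM in wild-type cells and 9.03, 24.3 and 11.7 RPKM in knockout cells, and OAS2 at 2.499, 10.9 and 8.95 RPKM in wild-type cells and 3.35, 8.298 and 5.07 RPKM in knockout cells. In wild type both IL-1α libraries were more than 2-fold above PBS for each gene, while knockout library 2 lay much closer to its PBS library than library 1 did. Wild-type differences were 1.90 ± 0.26 for OAS3 (adjusted p = 0.0621), 1.79 ± 0.32 for OAS2 and 1.58 ± 0.41 for OAS1. In the knockout they were 0.79 ± 0.26, 0.86 ± 0.32 and 0.87 ± 0.41.

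OASL, a relative that supports RIG-I signalling, did not share that pattern, at 20.1, 25.7 and 27.7 RPKM in wild-type cells and 28.8, 33.2 and 39.1 RPKM in knockout cells. Both knockout IL-1α libraries exceeded both wild-type ones, and the knockout PBS library exceeded the wild-type PBS library. ISG20, an exonuclease that degrades viral RNA, stood at 3.28, 17.5 and 10.1 RPKM in wild-type cells and 1.63, 4.53 and 3.89 RPKM in knockout cells. Knockout levels lay below the wild-type levels in both conditions, and the wild-type IL-1α libraries differed by more than 1.5-fold. Its wild-type difference was 1.87 ± 0.35 (adjusted p = 0.112) and its knockout difference 1.14 ± 0.35.

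The dynamin-like GTPases MX1 and MX2, which block incoming viral particles, are neighbours on chromosome 21. MX1 (chr21:42803977-42831141, hg19) stood at 1.34, 14.8 and 13.9 RPKM in wild-type cells and 2.29, 8.12 and 4.04 RPKM in knockout cells. Both wild-type IL-1α libraries stood far above every other library, and knockout library 1 held 2 times the level of library 2. The wild-type difference was 3.02 ± 0.38 (adjusted p = 0.0609) and the knockout difference 1.16 ± 0.38. MX2 rested on few reads with PBS, 3 in wild type and 12 in the knockout, and stood at 0.061, 2.83 and 2.38 RPKM in wild-type cells and 0.117, 1.12 and 0.821 RPKM in knockout cells. Rebuilt reads, relative to depth, were 42.6 times higher with IL-1α in wild type (exact 95% interval 14.4 to 208, counting error only) and 8.12 times higher in the knockout (4.51 to 16.1). The guanylate-binding protein GBP1, a GTPase that attacks intracellular pathogens, stood at 3.27, 6.63 and 8.17 RPKM in wild-type cells and 1.09, 3.17 and 1.69 RPKM in knockout cells; the knockout values were the lower ones in each condition.

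RSAD2 and CMPK2 are adjacent on chromosome 2 and encode viperin, which makes a chain-terminating nucleotide, and the nucleotide kinase that feeds it. CMPK2 stood at 1.28, 6.64 and 6.73 RPKM in wild-type cells and 2.63, 7.21 and 4.61 RPKM in knockout cells, and RSAD2 at 2.303, 6.32 and 7.11 RPKM in wild-type cells and 2.57, 6.18 and 1.98 RPKM in knockout cells. Wild-type replicates were close for both genes, but knockout library 2 of RSAD2 lay below the knockout PBS library, while library 1 matched wild type. The differences were 2.01 ± 0.30 in wild type (adjusted p = 0.0715) and 1.001 ± 0.30 in the knockout for CMPK2, and 1.36 ± 0.55 and 0.40 ± 0.55 for RSAD2.

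The IFIT proteins bind viral RNA 5′ ends, and their genes form a cluster on chromosome 10. They were abundant with PBS and, apart from IFIT3, differed little with IL-1α. IFIT3 stood at 49.04, 92.5 and 95.7 RPKM in wild-type cells and 59.4, 86.4 and 73.1 RPKM in knockout cells, and IFIT2 at 43.5, 40.5 and 44.9 RPKM in wild-type cells and 42.4, 39.4 and 38.6 RPKM in knockout cells. IFIT1 and IFIT5 stood at 12.9, 16.99 and 16.6 RPKM in wild-type cells and 11.5, 14.1 and 13.5 RPKM in knockout cells, and at 14.2, 18.3 and 20.5 RPKM in wild-type cells and 12.9, 16.01 and 15.7 RPKM in knockout cells. Only IFIT3 had an unadjusted p under 0.05 among the 4, with a wild-type difference of 0.93 ± 0.20 (adjusted p = 0.135) and a knockout difference of 0.42 ± 0.20. IFIT2 was level, at -0.03 ± 0.18 and -0.12 ± 0.18. All 4 had both knockout IL-1α libraries below both wild-type ones, by differences of -0.13 to -0.28.

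ISG15 is a ubiquitin-like protein that is attached to other proteins, by a pathway using UBE2L6 and HERC5 and removed by USP18. ISG15 stood at 61.6, 79.3 and 61.1 RPKM in wild-type cells and 25.8, 33.1 and 45.9 RPKM in knockout cells. The knockout levels lay below all 3 wild-type levels, and IL-1α library 2 of wild type matched its PBS library. HERC5, the main ligase of the pathway, had the opposite order, at 1.403, 1.28 and 1.99 RPKM in wild-type cells and 3.14, 2.97 and 4.95 RPKM in knockout cells: every knockout library exceeded every wild-type library. UBE2L6 stood at 32.7, 44.7 and 39.9 RPKM in wild-type cells and 44.9, 56.8 and 35.4 RPKM in knockout cells, and USP18 at 2.07, 3.46 and 3.202 RPKM in wild-type cells and 2.18, 3.03 and 4.55 RPKM in knockout cells. HERC6, next to HERC5 on chromosome 4, stood at 3.34, 4.296 and 4.495 RPKM in wild-type cells and 3.14, 4.06 and 5.33 RPKM in knockout cells. In none of these 5 did the wild-type difference reach an unadjusted p under 0.05.

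The ADP-ribosyltransferases PARP9 and PARP14 and the ligases DTX3L, TRIM21 and TRIM22 had wild-type differences of 0.60 to 1.51. PARP14, an ADP-ribosyltransferase, stood at 6.62, 15.1 and 25.8 RPKM in wild-type cells and 10.8, 23.3 and 16.7 RPKM in knockout cells; wild-type library 2 was over 1.5 times library 1. DTX3L, a ligase, stood at 14.9, 27.2 and 37.7 RPKM in wild-type cells and 25.2, 35.9 and 27.3 RPKM in knockout cells. PARP9, its partner, stood at 18.4, 27.9 and 28.2 RPKM in wild-type cells and 18.8, 23.4 and 13.97 RPKM in knockout cells. DTX3L and PARP9 lie 38 bases apart on opposite strands of chromosome 3, and no source says whether counting used the strand, so reads of one may be counted with the other. TRIM21, an antibody receptor inside the cell, stood at 13.98, 28.9 and 30.3 RPKM in wild-type cells and 17.6, 32.2 and 21.8 RPKM in knockout cells, and TRIM22, an antiviral ligase, at 5.16, 10.98 and 8.14 RPKM in wild-type cells and 3.904, 7.31 and 4.597 RPKM in knockout cells. Wild-type differences were 1.51 ± 0.36 for PARP14, 1.08 ± 0.28 for DTX3L, 1.06 ± 0.26 for TRIM21, 0.81 ± 0.33 for TRIM22 and 0.60 ± 0.31 for PARP9.

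Among membrane proteins, the IFITM proteins, which hinder viral fusion, were the most abundant members and the ones that stood lower with IL-1α. IFITM3 stood at 518, 491 and 311 RPKM in wild-type cells and 412, 393 and 263 RPKM in knockout cells. IFITM1 stood at 115, 112 and 70.7 RPKM in wild-type cells and 73.5, 86.6 and 43.1 RPKM in knockout cells, and IFITM2 at 94.8, 88.3 and 60.4 RPKM in wild-type cells and 90.3, 85.96 and 47.4 RPKM in knockout cells. IL-1α library 1 was near PBS in both genotypes apart from IFITM1 in the knockout, where it was higher, and library 2 was the lowest of its genotype for all 3. Wild-type differences were -0.41 ± 0.37, -0.37 ± 0.45 and -0.37 ± 0.39 for IFITM3, IFITM1 and IFITM2, none passing the test. These 3 genes are close copies on chromosome 11, so their reads may be shared and their separate values are uncertain. They are also short, 661 to 726 bases. In wild type all 1656 genes under 1 kb had a median difference of -0.53, and the 7 such members 0.18 against 0.92 for the 40 longer ones. With the trend on length removed, the 3 wild-type differences turned to 0.17 to 0.19.

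IFI6, a mitochondrial and reticulum protein that limits cell death and viral replication, stood at 4.26, 15.7 and 9.11 RPKM in wild-type cells and 2.45, 4.18 and 5.51 RPKM in knockout cells, and the related IFI27 at 0.827, 3.61 and 2.89 RPKM in wild-type cells and 0.94, 3.24 and 1.395 RPKM in knockout cells. PLSCR1, a lipid scramblase, stood at 44.3, 80.2 and 62.2 RPKM in wild-type cells and 31.3, 49.1 and 34.03 RPKM in knockout cells. For IFI6 and PLSCR1 both knockout IL-1α libraries lay below both wild-type ones, whereas knockout library 1 of IFI27 fell between the wild-type values. BST2 (tetherin), which holds budding virions at the membrane, stayed at 0.271 to 0.498 RPKM.

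PML and SP100 build the PML nuclear bodies. PML stood at 24.5, 57.6 and 50.8 RPKM in wild-type cells and 27.6, 43.7 and 40.5 RPKM in knockout cells, and SP100 at 13.98, 24.5 and 23.4 RPKM in wild-type cells and 13.7, 20.03 and 19.9 RPKM in knockout cells. Replicates were close, and IL-1α values exceeded PBS in both genotypes. PML differed by 1.13 ± 0.19 in wild type (adjusted p = 0.10003) and 0.60 ± 0.19 in the knockout, and SP100 by 0.75 ± 0.18 and 0.52 ± 0.18.

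Of the remaining members, XAF1, a promoter of apoptosis, differed most, at 1.77, 12.6 and 12.6 RPKM in wild-type cells and 2.77, 9.98 and 4.92 RPKM in knockout cells. Wild-type replicates were nearly equal, and knockout library 1 held 2 times the level of library 2. Its differences were 2.53 ± 0.39 (adjusted p = 0.0776) and 1.20 ± 0.39. SAMD9 and SAMD9L, neighbouring antiviral growth restrictors on chromosome 7, stood at 29.4, 42.6 and 41.2 RPKM in wild-type cells and 20.6, 21.3 and 12.98 RPKM in knockout cells, and at 3.48, 6.59 and 7.26 RPKM in wild-type cells and 1.47, 3.47 and 2.06 RPKM in knockout cells. All knockout values of SAMD9 lay below all wild-type values, and knockout IL-1α library 2 stood below the knockout PBS library. IFI44 stood at 15.3, 28.3 and 25.6 RPKM in wild-type cells and 12.02, 14.5 and 25.3 RPKM in knockout cells, EPSTI1 at 4.54, 4.77 and 5.37 RPKM in wild-type cells and 6.54, 7.42 and 4.21 RPKM in knockout cells, and IFI35 at 7.12, 8.35 and 6.77 RPKM in wild-type cells and 6.34, 7.77 and 5.58 RPKM in knockout cells. LGALS3BP, a secreted glycoprotein, stood at 86.9, 78.1 and 71.5 RPKM in wild-type cells and 85.2, 84.9 and 75.3 RPKM in knockout cells, and IFI44L at 0.0150 to 0.367 RPKM.

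In the knockout the same direction prevailed with smaller values. Both IL-1α libraries lay above PBS in 32 of 47 genes (27.8% of all genes) and both below in 4, IFIT2, IFITM2, IFITM3 and LGALS3BP (36.4%). The median difference was 0.52, against -0.02 over all genes, and 9 genes exceeded 2-fold (1.54% of all genes): IRF7, IRF9, IFIH1, DDX58, ISG20, MX1, MX2, CMPK2 and XAF1. By adjusted p 0 of 47 passed (0.0696% of all genes higher, 0% lower); at an unadjusted p under 0.05, 13 were higher and 0 lower (2.53% and 1.05%). The members' median was 0.54 without knockout IL-1α library 2 and 0.40 without knockout library 1. MX2, which passed the filter in IL-1α libraries alone, is among the 32, the 9 and the 13. IFI27, which passed in the same way, is among the 32.

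**Figure D3:**
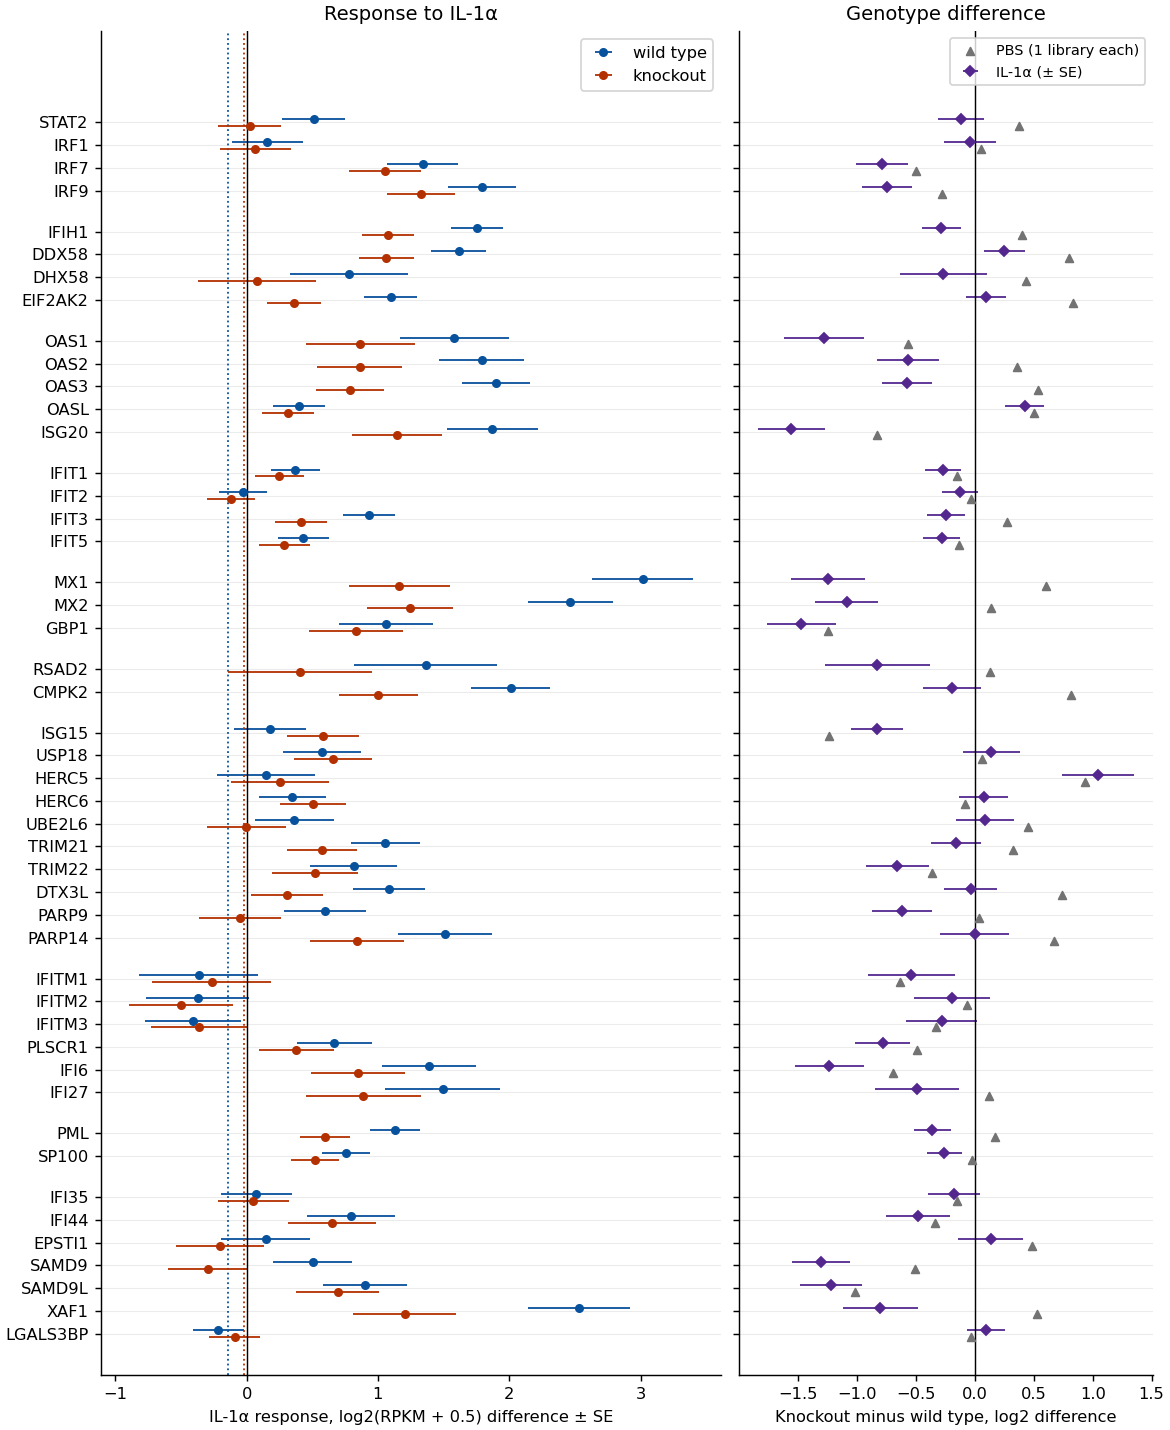
Left, IL-1α difference of each gene in wild type (blue) and knockout (red), log2(RPKM + 0.5) ± SE, with dotted lines at the medians of all genes (-0.14 and -0.02). Right, knockout minus wild type with IL-1α (diamonds, ± SE) and with PBS (triangles, 1 library each); ISG20, GBP1 and SAMD9 lie furthest left and HERC5 furthest right.

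With IL-1α, most members were lower in the knockout than in wild type, most of all ISG20, GBP1, SAMD9, OAS1, MX1, IFI6, SAMD9L and MX2, while HERC5 was higher. Both knockout libraries lay below both wild-type libraries in 26 of 47 genes (16.3% of all genes) and above them in 3, DDX58, OASL and HERC5 (32.4%). The median difference was -0.28, against 0.09 over all genes; 8 genes were more than 2-fold lower (1.61% of all genes) and 1 more than 2-fold higher (1.79%). None passed the adjusted test in either direction (0.108% of all genes lower, 0.0464% higher). At an unadjusted p under 0.05, 16 were lower and 2, OASL and HERC5, higher (4.93% and 9.97%). Of all genes, 637 lower and 1289 higher became 983 and 809 with median-of-ratios rescaling and 1148 and 974 with the length trend removed, while the members counted 20 and 22 lower and 1 higher in each. The members' 16 lower became 13 with an added 0.1 in place of 0.5 or with no variance trend, and 14 with no filter on low values. ISG20 had a difference of -1.56 ± 0.28 (limma adjusted p = 0.134), SAMD9 of -1.31 ± 0.25 (adjusted p = 0.146) and GBP1 of -1.47 ± 0.29 (adjusted p = 0.163). MX1 differed by -1.25 ± 0.31 (adjusted p = 0.199), SAMD9L by -1.22 ± 0.26 and ISG15 by -0.83 ± 0.22. HERC5 differed by 1.04 ± 0.30 (adjusted p = 0.233) and OASL by 0.42 ± 0.16. The members' median was -0.29 without wild-type IL-1α library 1 and -0.45 without wild-type library 2. It was -0.49 without knockout library 1 and -0.12 without knockout library 2. Leaving a library out also removes a degree of freedom from the fit.

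For some members that order was also present with PBS, in 1 library per genotype and so without a test. ISG20, GBP1, ISG15 and SAMD9L were more than 2-fold lower by RPKM in the knockout PBS library, 4 of 47 (5.49% of all genes), and CMPK2 and HERC5 more than 2-fold higher (4.02%). On the log2(RPKM + 0.5) scale the differences were -1.24 for GBP1, -1.24 for ISG15, -1.01 for SAMD9L and -0.83 for ISG20, and 0.94 and 0.81 for HERC5 and CMPK2. All genes under 1 kb had a median of -0.51 in this comparison, and ISG15, of 662 bases, differed by -0.72 with the length trend removed. In all, 25 genes were higher and 22 lower in the knockout (48.5% and 51.2% of all genes), with a median of 0.05 against -0.01 over all genes. These counts and the median lie near the values of all genes and do not set the members apart with PBS. The RNA sensors were on the higher side, by 0.40 to 0.83 over the 4 genes, whereas MX1 (0.61) and XAF1 (0.53) were higher with PBS and lower with IL-1α in the knockout.

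The interaction term compared the IL-1α differences of the genotypes directly. The knockout difference was smaller than the wild-type one in 40 of 47 genes (39.6% of all genes), with a median of -0.46 against 0.10 over all genes. By adjusted p 0 passed (0% of all genes in each direction); at an unadjusted p under 0.05, 4 were lower, EIF2AK2, OAS3, MX1 and MX2, and 0 higher (0.627% and 3.76%). The members' 4 became 12 with the length trend removed, 7 with median-of-ratios rescaling, quantile normalization or an added 0.1 in place of 0.5, and 6 with a filter of 1 RPKM in 2 libraries. It stayed at 4 with an added 1 or no filter on low values. With no variance trend, and with voom on rebuilt reads, it fell to 3. Of all genes, 81 lower and 486 higher became 256 and 134 with the length trend removed and 159 and 296 with median-of-ratios rescaling. MX1 differed by -1.85 ± 0.54, XAF1 by -1.33 ± 0.55, MX2 by -1.22 ± 0.46, OAS3 by -1.11 ± 0.37 and CMPK2 by -1.01 ± 0.42, the 5 beyond 2-fold (1.19% of all genes); each had an adjusted p of 0.966 in limma. MX2, among the 4 at an unadjusted p under 0.05, passed the filter in IL-1α libraries alone. The members' interaction median was -0.58 without knockout IL-1α library 1 and -0.22 without knockout library 2. It was -0.34 without wild-type IL-1α library 1 and -0.45 without wild-type library 2. The 4 comparisons share libraries and are not independent of each other.

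**Figure D4:**
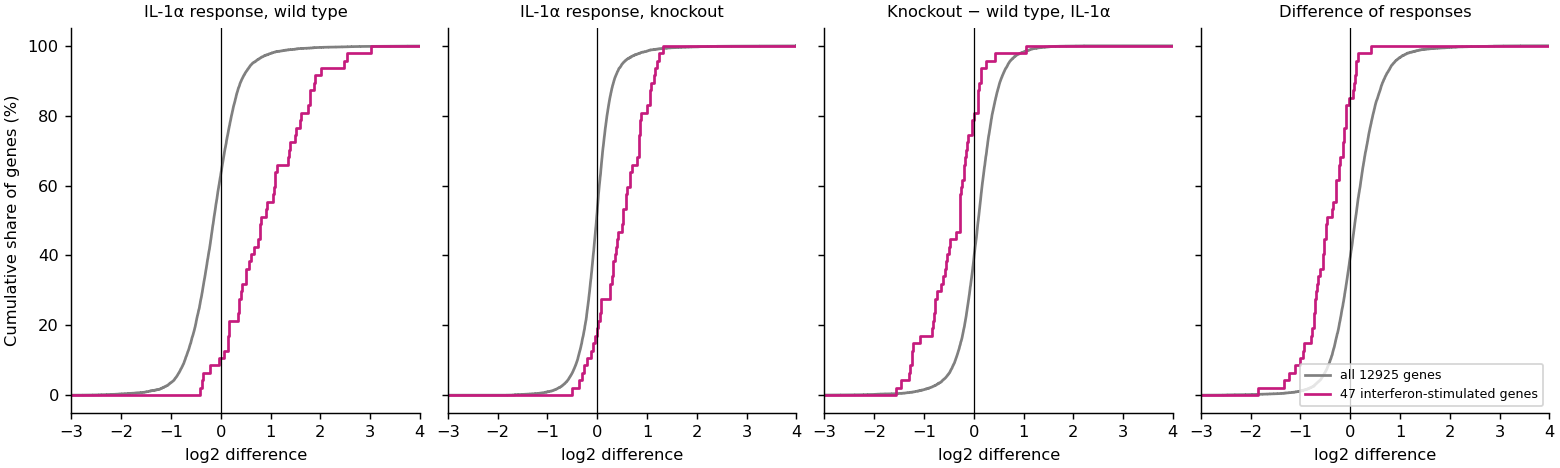
Cumulative share of genes (y axis, %) by log2 difference (x axis) for the 47 interferon-stimulated genes (pink) and all 12925 genes (grey) in the 4 fitted comparisons. The pink curve lies right of the grey one in both IL-1α responses (medians 0.81 and 0.52) and left of it in both genotype comparisons (medians -0.28 and -0.46).

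The 2 knockout IL-1α libraries did not give these genes the same level. On the log2(RPKM + 0.5) scale library 1 exceeded library 2 by more than 1.5-fold in 17 of 47 genes (8.91% of all genes), and library 2 exceeded library 1 in 2, HERC5 and IFI44 (6.82%). On that scale the wild-type counts were 4 (ISG20, IFITM1, IFITM3 and IFI6) and 1 (PARP14), against 2.22% and 3.44% of all genes. The median member stood at 16.01 RPKM in knockout library 1 and 13.5 RPKM in library 2, with 9.39 RPKM in the knockout PBS library below it and the wild-type IL-1α pair above it at 18.3 and 18.7 RPKM. The lowest of the 6 values lay in the wild-type PBS library for 19 genes, the knockout PBS library for 15 and knockout IL-1α library 2 for 11. It lay in each wild-type IL-1α library for 1 gene and in knockout IL-1α library 1 for 0. The matching shares of all genes were not counted. The log2 gap between the 2 knockout IL-1α libraries was 1.43 for RSAD2, 1.11 for DHX58, 1.02 for OAS1, 0.95 for XAF1 and 0.92 for MX1. It was only 0.003 for IFIH1 and 0.11 for PML.

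The genotype difference moved with that library. The median difference with IL-1α was -0.12 without knockout library 2 (30 genes lower, 17 higher) and -0.49 without knockout library 1 (40 lower, 7 higher); without wild-type library 2 it was -0.45, and without wild-type library 1 -0.29. Over all genes the median difference with IL-1α was 0.08 without knockout library 2 and 0.10 without knockout library 1. The shares of all genes lower and higher under these settings were not counted. The members' interaction median was -0.22 without knockout library 2 and -0.58 without knockout library 1. Of the other interferon-induced genes listed below, 21 of 53 were also over 1.5-fold higher in knockout library 1 than in library 2 (8.91% of all genes). MAPK14 was lower in library 2 (7.41 against 10.99 RPKM) and so was CDH5 (1.84 against 10.3 RPKM); their part in the difference was not tested.

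**Figure D5:**
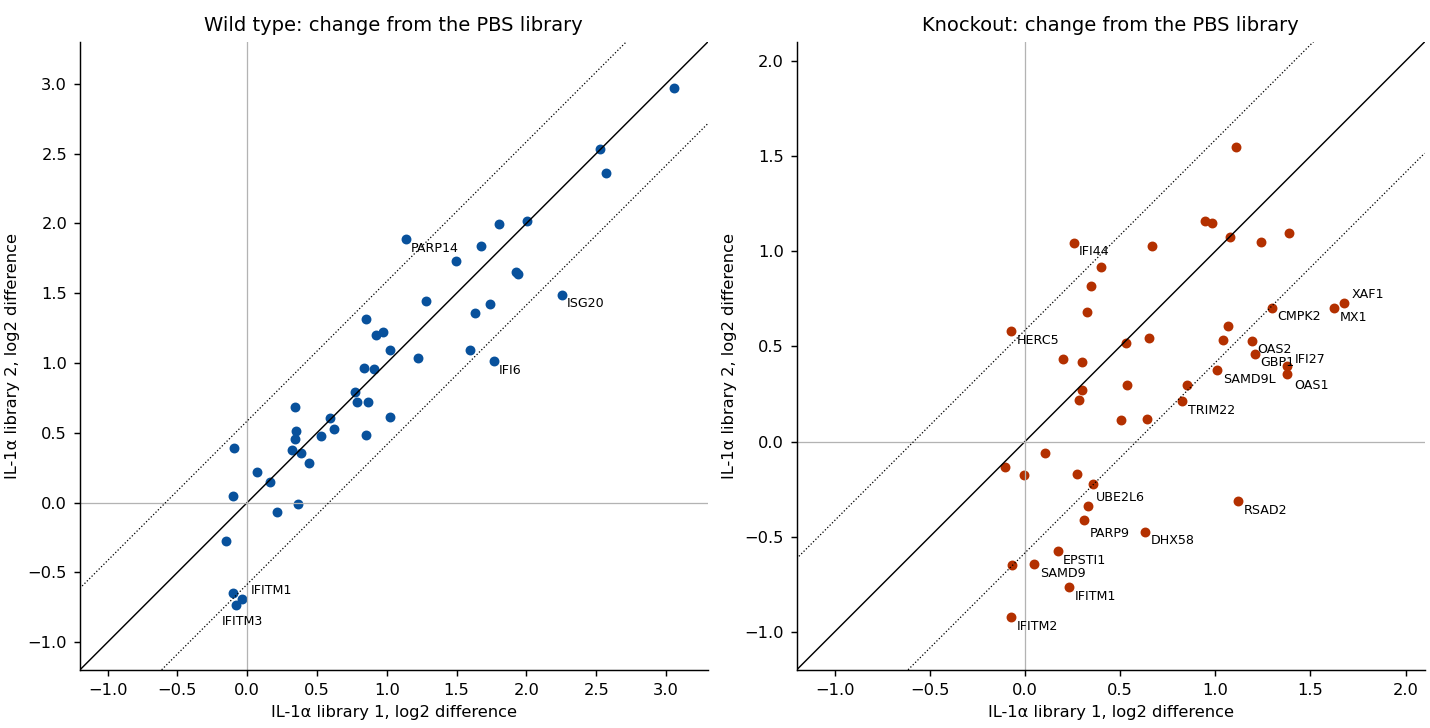
Change of each gene from its PBS library in IL-1α library 1 (x axis) and library 2 (y axis), log2(RPKM + 0.5), in wild type (left) and knockout (right); the solid line is equality and dotted lines mark 1.5-fold. Wild-type points follow the line, whereas 17 knockout points lie below the lower dotted line.

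The rest of the pathway was read from lists of 103 genes, of which 81 were tested and 0 passed the adjusted test in any comparison; at an unadjusted p under 0.05, 28 were higher and 1 lower in wild type with IL-1α (4.69% and 13.4% of all genes), and 17 higher and 0 lower in the knockout (2.53% and 1.05%). Listed genes that passed the filter in IL-1α libraries alone, such as LAMP3 and CXCL10 below, do not add support to these counts. The ligands were at or near the limit of detection: 0 of 13 reached 1 RPKM. IFNA2, IFNA5, IFNA8, IFNW1, IFNG and IFNL4 had 0 reads in every library, where 3 reads on a 1 kb transcript would give 0.0858 to 0.184 RPKM. IFNB1 had 1 read in all, in knockout IL-1α library 1, and IFNA1 had 1 read in each PBS library. The type III ligand IFNL1 had 0, 2 and 2 reads in wild type and 2, 4 and 10 reads in the knockout, and IFNL2 and IFNL3 had at most 2 reads a library. IFNK, a keratinocyte interferon, had at most 4 reads, and IFNE stood at 0.528, 0.501 and 0.513 RPKM in wild-type cells and 0.35, 0.683 and 0.274 RPKM in knockout cells. Both wild-type IL-1α values of IFNE lay just below the wild-type PBS value, and the knockout ones fell on either side of the knockout PBS value. RNA at 4 h does not report earlier transcription or secreted protein.

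Receptor RNA was present. IFNGR1, the ligand-binding chain of the interferon-γ receptor, stood at 33.5, 94.02 and 93.5 RPKM in wild-type cells and 31.4, 80.7 and 96.8 RPKM in knockout cells, and IFNGR2, its partner, at 14.4, 33.3 and 27.98 RPKM in wild-type cells and 16.7, 37.1 and 37.1 RPKM in knockout cells. All IL-1α libraries exceeded both PBS libraries, by 1.47 ± 0.20 in wild type and 1.48 ± 0.20 in the knockout for IFNGR1 (limma adjusted p = 0.0621 and 0.103), and by 1.06 and 1.13 for IFNGR2. The receptor-associated kinase JAK1 stood at 16.6, 22.9 and 27.9 RPKM in wild-type cells and 19.2, 23.6 and 21.9 RPKM in knockout cells. Among sensors and adaptors, TICAM1 (TRIF), the adaptor of TLR3, stood at 11.6, 31.8 and 25.2 RPKM in wild-type cells and 12.3, 19.7 and 13.2 RPKM in knockout cells, and the kinase IKBKE, which acts on IRF3, at 8.36, 17.3 and 19.8 RPKM in wild-type cells and 8.18, 16.7 and 21.8 RPKM in knockout cells. TICAM1 differed by 1.25 in wild type and 0.38 in the knockout, whereas IKBKE differed by 1.10 and 1.17. IRF3 stood at 37.5, 43.5 and 37.2 RPKM in wild-type cells and 27.96, 39.8 and 42.3 RPKM in knockout cells. Of the brakes on the pathway, SOCS1 stood at 0.74, 2.58 and 1.51 RPKM in wild-type cells and 1.27, 2.75 and 3.27 RPKM in knockout cells, and IRF2 at 8.02, 13.2 and 14.7 RPKM in wild-type cells and 11.5, 16.7 and 19.3 RPKM in knockout cells, with both IL-1α libraries above PBS in each genotype.

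Of 53 further interferon-induced genes tested, 17 were higher and 1 lower in wild type with IL-1α at an unadjusted p under 0.05 (4.69% and 13.4% of all genes), and 10 higher and 0 lower in the knockout (2.53% and 1.05%). LAMP3, a lysosomal protein, stood at 0.52, 7.07 and 5.63 RPKM in wild-type cells and 0.738, 4.37 and 1.64 RPKM in knockout cells, and GBP3 at 8.59, 25.3 and 27.6 RPKM in wild-type cells and 7.38, 20.2 and 15.5 RPKM in knockout cells. Their wild-type differences were 2.74 ± 0.49 and 1.57 ± 0.23 (limma adjusted p = 0.11002 and 0.0672). The chemokine CXCL10, which draws T cells, had the opposite genotype order, at 0.049, 1.27 and 0.847 RPKM in wild-type cells and 0.165, 3.66 and 2.03 RPKM in knockout cells; it differed between genotypes with IL-1α by 1.07 ± 0.34 (adjusted p = 0.253). LAMP3 and CXCL10 stayed under 1 RPKM with PBS in both genotypes and passed the filter in IL-1α libraries alone. A higher value with IL-1α was built into their selection, so they do not add support to the counts above. How many of the 53 passed in this way was not counted. The immunoproteasome genes PSMB8 and PSMB9 and the transporter TAP2 were listed at 0 in every library, where they are annotated at several places, and were not measured. PSMB10 stood at 54.98, 37.2 and 31.04 RPKM in wild-type cells and 27.4, 32.8 and 27.8 RPKM in knockout cells, so it was lower with IL-1α in wild type and not in the knockout, whose PBS library was already low. PSMB10 is 996 bases long, and with the length trend removed its wild-type difference was -0.21 in place of -0.69 and its PBS difference -0.61 in place of -0.99.

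Response size was set beside the promoter matches as a description. The median wild-type difference was 0.93 over 25 tested genes with an ISRE core in a window and 0.83 over 12 without. It was 1.76 over 7 genes with a κB consensus and 0.77 over 30 without, and in the knockout 1.06 and 0.41. IFIH1, DDX58, OAS3, MX1 and XAF1 held a κB match and differed by 1.61 to 3.02 in wild type, while IRF1 (0.16) and IFITM3 (-0.41) held one too.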

How the data were processed

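Expression was measured by poly-A RNA sequencing in 6 HaCaT libraries. Per the labels' protocols, RNA came from TRIzol extraction followed by column purification (RNeasy), and the TruSeq stranded mRNA kit was used. Per the submitters' processing notes, bcl2fastq 2.20.0.422, STAR and HOMER were used on hg19; the last 2 have no stated versions. The authors deposited 1 table of RPKM per gene symbol counted over exons, per the file headers, which also write FPKM and give no strand setting. The unit is normalised to length and depth, so low genes rest on few reads.

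Values were used as deposited. Depth was recovered from the steps of RPKM between 0.02 and 1: 100% of values became whole reads within 0.1 read in each library. Those rebuilt reads served for ratios with exact 95% intervals, which cover counting error only, and for voom. Of 27945 genes, 7424 were at 0 in every library.

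A gene entered the fit if any library reached 1 RPKM. limma 3.58.1 (R 4.3.3) was run on log2(RPKM + 0.5) with a coefficient for each group and the variance trend switched on; p-values were adjusted by Benjamini-Hochberg, threshold 0.05. Spread came from the 2 replicated groups (2 residual and 4.2 prior degrees of freedom). The PBS libraries, 1 per genotype, were compared by fold alone. The fit was also run on simulated counts with the same dispersion for every gene. That dispersion was not taken from these replicates, so the run does not show the error rates in these data. Replicate numbers were not used to pair samples in this fit. Deviations of same-numbered IL-1α libraries correlated at 0.0086 over all genes and 0.049 over the members. With 2 libraries per genotype this does not show whether equal numbers mark a shared culture or batch.

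The members, gene lists and roles were chosen with earlier results of these data known. Library values are printed for members passing in any comparison, with an unadjusted p under 0.01, among the 5 most abundant, at least 2-fold apart with PBS, or largest in their role; the rest were added for completeness. Pathway genes are named for the 2 largest differences of a list at an unadjusted p under 0.05, and ligands always; PSMB8, PSMB9, TAP2 and IRF3 were named beside that rule. 1 gene of the pathway lists is not reported here. Promoter sequences and windows are from RefSeq, build GRCh38.p14; no sequence is given for the 10 unmatched members. Alternatives were other pseudocounts, filters, scalings, a length correction, no variance trend, voom, a replicate block and each IL-1α library left out.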

Additional observations from a re-analysis of the deposited data

Results flagged for a closer look

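For 4 pathway genes the IL-1α difference had opposite directions in the genotypes, with both libraries of each genotype on one side of PBS. The share of all genes meeting this rule was not counted, so the 4 are not shown to be unusual. The interaction (knockout minus wild-type difference, log2) did not pass in limma. It was 0.8228 for PSMB10, 0.3973 for PSME2, -0.3185 for PIAS1 and -0.2805 for TRIM14. The immunoproteasome genes PSMB10 and PSME2, an activator subunit, were lower with IL-1α in wild type, and their knockout PBS levels were already lower. Both are under 1 kb long; with the trend on length removed, the wild-type difference of PSME2 turned from -0.17 to 0.36 and its interaction to -0.08, and those of PSMB10 shrank from -0.69 to -0.21 and to 0.40. PIAS1, a SUMO ligase, and TRIM14, a signalling adaptor, had higher values with IL-1α in wild type and lower ones in the knockout. For PIAS1 the wild-type margin was slight in IL-1α library 1, at 15.7 RPKM against 15.5 RPKM with PBS.

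IFI44L, which was too low to be tested, had a read ratio of IL-1α to PBS above 1 in both genotypes. It was 6.532 in wild type (exact 95% interval 2.67 to 20.8) and 7.671 in the knockout (2.41 to 39.0, with 3 reads in the PBS library). These intervals cover counting error only.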

How the results depend on the processing

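The count of calls over all genes depended on the settings, and no median of the members changed sign under any setting tried. Genes called in the wild-type response numbered 28 as reported, 100 with a filter of 1 RPKM in 2 libraries, 49 with no filter, 48 with median-of-ratios rescaling, 102 with the length trend removed, 11 with voom and 0 to 46 with an IL-1α library left out. In the knockout response 9 genes became 38, 65, 30 and 2 with the stricter filter, no filter, the length correction and voom, 5 with a pseudocount of 1, 4 with no variance trend and 0 with any IL-1α library left out; the length correction split its calls into 19 higher and 11 lower and no filter into 1 and 64, against 9 and 0. In wild type the calls were 2 higher and 47 lower with no filter, against 26 and 2. Between genotypes with IL-1α, 20 genes became 7 with a pseudocount of 0.1, 76 with the stricter filter, 0 with no filter, 13 with quantile normalization, 39 with the length correction, 0 with no variance trend, 55 with voom and 0 with any IL-1α library left out. The interaction count of 0 became 87 with no filter. The cause was not tested.

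Members called in wild type numbered 1 as reported, 8 with the stricter filter, 3 with median-of-ratios rescaling, 9 with the length correction, 0 with a pseudocount of 0.1, no filter or voom, and 0 to 2 with an IL-1α library left out. Median-of-ratios rescaling moved the median of all genes in wild type from -0.14 to -0.01. The members' median in wild type was then 0.95, and 0.998 with the length correction, against 0.81. The knockout median ranged from 0.40 to 0.54 with a library left out. The genotype difference with IL-1α had a median of -0.41 with the length correction and -0.49 to -0.12 with a library left out; the interaction median was -0.59 with median-of-ratios rescaling and -0.58 to -0.22 with a library left out. For the 30 members the naming rule picked, 54 results had an unadjusted p under 0.05; of their 716 values under these settings 0 reversed, 8 lost and 23 gained an adjusted call. With their other results included, signs reversed in 5 members for wild type (5 values), 3 for the knockout (3), 9 between genotypes (15) and 8 for the interaction (21). With the replicate block, which pairs IL-1α libraries by a shared number only, 62 genes were called between genotypes, and 1 member, ISG20, at -1.56 (limma adjusted p = 0.0453); no paired fit was possible for contrasts with PBS because each PBS group has 1 library without a number. Depth limits IFI44L, MX2 with PBS and the ligands.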
